A study of Mus musculus with 15 samples.

Results

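The genes described here are 42 that encode enzymes and membrane proteins of the lysosome. They were chosen by name for their place in the lysosome, with no measured value in the rule, though earlier results of these data were known. They comprise 10 cathepsins, 21 other hydrolases, 4 activators and carriers, and 7 membrane proteins. All 42 were found among the 43629 genes counted, each under 1 gene identifier, and all 42 passed the filter on low counts, whose lowest value among them was 27 counts in a single mouse (Galns). They were measured by RNA-seq of whole brain from male C57BL/6J mice, with 1 library per mouse. Young mice of 3 months and old mice of 24 months had been fed either ad libitum (AL) or every other day (EOD, which the labels call intermittent fasting, IF). These ages are those of the labels, and the study gives a younger age for its old mice at the start of its analyses. Per the study, EOD was short-term in the young mice and almost lifelong in the old mice. Among EOD mice, age and time on EOD therefore cannot be told apart. The diet comparisons in young and in old mice likewise differ in time on EOD. There were 4 mice in each AL group, 3 in the young EOD group and 4 in the old EOD group. The mice of all 4 groups carried no transgene or targeted allele that the labels name.

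The lysosome is the acidic compartment in which cells break down proteins, lipids, glycans and material taken up from outside. Its hydrolases are made in the endoplasmic reticulum, are carried to the lysosome mostly by mannose 6-phosphate receptors, and work at low pH, while heavily glycosylated membrane proteins line its wall. All brain cells have lysosomes, but microglia, the phagocytes of the brain, hold many of them, and inherited loss of many of these genes gives a storage disease of the nervous system.

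The total count ranged from 5198748 to 13610729 per mouse. The third young AL mouse stood apart: it had 17280 genes with a count against 19054 to 20880 in the others, and its median correlation with the other mice was 0.957 against 0.980 to 0.987. Among the 42 genes it lay above the other 14 mice for 7, below them for 11 and within their range for 24, so calls that depend on it, and single differences with age that moved by over 1.5 times without it, are also given without it. Old AL mouse 4 carried a pituitary signal, with 1032 CPM (counts scaled to a common library size) over the pituitary markers measured against at most 18.2 in any other mouse. Markers of neurons summed to between 8249 and 10239 CPM in every mouse, with the highest sum in the third young AL mouse. Choroid plexus markers summed to 313 CPM in that mouse, the lowest, and to 1198 CPM in old EOD mouse 1, the highest. Blood cell markers summed to 22.3 CPM in the third young AL mouse, the lowest, and to 93.0 CPM in old EOD mouse 2, the highest.

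Together the 42 genes took between 0.504% and 0.617% of all counts of a mouse. Genes were compared with each other per kilobase of all annotated exons, not of the transcript expressed, so their order depends on the annotation. Per kilobase of exon, Psap stood first by a wide margin, with 608 ± 31.6 CPM per kilobase (mean ± SD, n = 15 mice). It encodes prosaposin, the precursor of the saposins that help hydrolases reach their lipid substrates, and it alone made up 27.0% to 31.9% of the counts of the 42 genes. Lamp1, a major glycoprotein of the lysosomal wall, followed with 184 ± 13.8 CPM per kilobase. Next came the aspartic protease cathepsin D (Ctsd, 177 ± 27.3) and the cysteine protease cathepsin B (Ctsb, 161 ± 11.7), also in CPM per kilobase. The order of Lamp1 and Ctsd turned with age in AL mice. Lamp1 was above Ctsd in 4 of 4 young AL and 3 of 3 young EOD mice. The group means in young AL mice were 171 ± 8.53 against 151 ± 8.07 CPM per kilobase. In old AL mice Lamp1 was above Ctsd in 0 of 4, with 198 ± 6.70 against 209 ± 6.01, and in old EOD mice in 3 of 4. Lamp1 was above Ctsb in 14 of 15 mice. The cysteine protease cathepsin S (Ctss), with 77.5 ± 23.6 CPM per kilobase, was the last of the 5 highest over all mice. It held that place through the old mice, with a mean of 104 CPM per kilobase in old AL and 91.4 in old EOD mice. In young AL mice it lay at 53.8, below the alpha-glucosidase gene Gaa (59.2) and the protease gene Ctsl (58.3), by less than the standard deviation of either, all in CPM per kilobase. At the other end stood the heparan sulfate enzyme Sgsh, with 1.70 ± 0.485 CPM per kilobase, next to Galns and Naglu, with 2.15 ± 0.395 and 2.22 ± 0.483 CPM per kilobase. Within groups the coefficient of variation was lowest for Lamp1 (3.70%) and highest for Sgsh (29.0%).

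**Figure D1:**
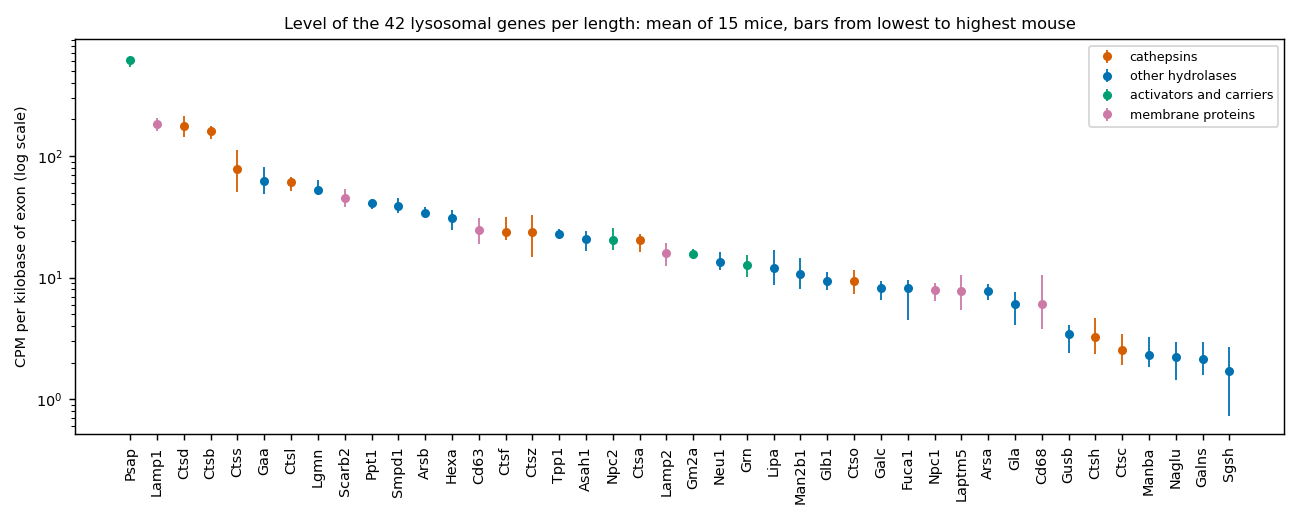
Level of each of the 42 genes in CPM per kilobase of exon, on a log axis, ordered from highest to lowest; points are means of 15 mice, bars run from the lowest to the highest mouse, and colours mark the 4 classes. Psap lies at 608, far above Lamp1 at 184, and the lowest gene, Sgsh, at 1.70.

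Many lysosomal genes carry an E-box, CACGTG, in their promoter, where transcription factors of the TFEB family bind. In RefSeq promoters (GRCm38.p6, from 250 bases before the gene start to 50 after), 37 of the 42 genes had an entry and Ctsb, Ctsh, Galns, Asah1 and Npc1 had none. CACGTG, which reads the same on both strands, was found in 12 of 37 (32.4%), against 11.2% of the 11686 tested genes with an entry and 8.09% of all 27025 genes in the table. The longer form GTCACGTG, which contains CACGTG and was searched on both strands, was found in 9 of 37 (24.3%) against 4.42% of tested genes. TCACGTGA, which also contains CACGTG and reads the same on both strands, was found in 3 (Ctsa, Ctsd and Gla; 8.11%) against 2.0%. The purine-rich GAGGAAGT, an ETS-type sequence of myeloid genes, was found on either strand in 4 (Ctsc, Ctss, Gla and Gusb; 10.8%) against 3.35%. Of the genes that passed the test for age described next, 2 of 11 with an entry held CACGTG (Ctsd and Lamp1, 18.2%), and of the others 10 of 26 did (38.5%). The 3 promoters shown are those of called genes in which a searched sequence was found, from 120 bases before the RefSeq gene start to 10 after, read 5′ to 3′ along the gene, with CACGTG or GAGGAAGT (here as its reverse complement) in capitals.
Ctsd (GRCm38.p6, chr7:142387818-142387947, minus strand): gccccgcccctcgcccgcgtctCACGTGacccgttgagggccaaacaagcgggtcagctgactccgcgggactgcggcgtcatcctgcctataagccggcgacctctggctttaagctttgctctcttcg
Lamp1 (GRCm38.p6, chr8:13159041-13159170, plus strand): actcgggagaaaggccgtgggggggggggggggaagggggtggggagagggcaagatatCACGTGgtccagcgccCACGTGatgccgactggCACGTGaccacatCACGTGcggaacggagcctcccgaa
Ctss (GRCm38.p6, chr3:95526666-95526795, plus strand): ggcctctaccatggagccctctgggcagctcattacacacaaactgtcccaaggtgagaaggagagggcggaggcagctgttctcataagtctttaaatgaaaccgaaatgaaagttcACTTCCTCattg
The Lamp1 promoter held 4 E-boxes, starting 61, 45, 28 and 15 bases before the gene start. The Ctsd promoter held an E-box 98 bases before the start and another 245 bases before it, outside the stretch shown. These starts are those of RefSeq, and the deposited annotation places the starts of Ctsd and Lamp1 farther upstream. By that annotation the Ctsd stretch shown and the Lamp1 E-box nearest the RefSeq start lie inside the genes. In the Ctss promoter the ETS-type sequence began 2 bases before the start, and no E-box was found in the window. These are matches of letters and say nothing of binding.

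The first question was whether these genes differ between old and young brains of AL mice. Of the 42, 8 rose with age and none fell by edgeR's quasi-likelihood test across 15864 genes (false discovery rate, FDR, under 0.1 after Benjamini-Hochberg adjustment): Ctsd, Ctss, Ctsz, Man2b1, Npc2, Npc1, Cd63 and Cd68. Of all genes tested, 1.09% were called in that comparison (150 higher and 23 lower). Without the third young AL mouse 7 were called, against 1.03% of genes, with Npc1 and Cd63 lost and Laptm5 gained. Leaving out the third old AL mouse left 5, with Cd63, Man2b1 and Npc1 lost, and a fit of the AL groups alone left 4, with Npc2 lost too. DESeq2 called 10 and limma 7. At an unadjusted p under 0.05 there were 19 of the 42, all higher in old mice, against 9.52% of all genes in either direction. The median log2 difference was 0.19 over the 42 genes, with 36 positive and 6 negative, and -0.0096 over all genes tested. The 4 old and 4 young AL mice did not overlap, with the old higher, for 13 of the 42 genes, against 2.98% of all genes.

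Of the 10 cathepsins, a group among the proteases of the lysosome, 3 rose in AL mice, and the median log2 difference of the 10 was 0.27. Ctss (ENSMUSG00000038642, chr3:95526786-95556403 in GRCm38), a protease of microglia and other antigen-presenting cells, lay at 71.9, 80.6, 69.04 and 70.9 CPM in the young AL mice and at 139, 120, 153 and 152 CPM in the old AL mice. It lay at 71.97, 79.6 and 73.3 CPM in young EOD mice and at 126, 117, 131 and 122 CPM in old EOD mice. Every old mouse was above every young mouse by more than the spread within any group. The log2 difference between old and young was 0.95 ± 0.0815 in AL mice (standard error, FDR = 4.56e-07), the largest of the 42 genes, and 0.73 ± 0.0898 in EOD mice (FDR = 0.000155).

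Ctsd (ENSMUSG00000007891, chr7:142371148-142388038) is the main aspartic protease of the lysosome. It was at 362, 402, 396 and 365 CPM in young AL mice, and at 540, 508, 539 and 523 CPM in old AL mice. Young EOD mice had 364, 371 and 404 CPM, and old EOD mice had 492, 499, 438 and 493 CPM. No old mouse fell within the young range under either diet, and the third old EOD mouse was the lowest of the old. The log2 difference with age was 0.47 ± 0.0628 in AL mice (FDR = 0.000205) and 0.34 ± 0.0683 in EOD mice (FDR = 0.0323). The annotated Ctsd span overlaps Ifitm10 on the same strand, where shared reads would have been left out of the count, and the Ctss span overlaps the pseudogene Hmgb1-ps5 in the same way.

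Ctsz (ENSMUSG00000016256, chr2:174427493-174439039), a carboxypeptidase, was at 21.3, 30.2, 28.6 and 28.1 CPM in young AL mice and at 42.2, 47.0, 41.99 and 45.1 CPM in old AL mice. It was at 23.9, 25.3 and 28.9 CPM in young EOD mice and at 41.96, 37.7, 34.6 and 34.5 CPM in old EOD mice. The old mice lay above all young mice under both diets, and old EOD mice lay below old AL mice, the nearest 2 of them by a narrow margin. The log2 difference with age was 0.70 ± 0.107 in AL mice (FDR = 0.00105), while in EOD mice it was 0.52 ± 0.12, just short of the threshold (FDR = 0.105).

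Ctsh (ENSMUSG00000032359, chr9:90054152-90076089), an aminopeptidase, and Ctso (ENSMUSG00000028015, chr3:81932601-81956725), a cysteine protease, passed only when age was averaged over both diets. Ctsh was at 16.5, 13.2, 10.7 and 11.7 CPM in young AL mice, 11.1, 11.2 and 12.1 CPM in young EOD mice, 20.9, 16.5, 18.7 and 13.9 CPM in old AL mice, and 16.9, 17.3, 13.2 and 16.9 CPM in old EOD mice. Its AL groups overlapped and its EOD groups did not. Ctso was at 44.8, 43.4, 37.7 and 42.7 CPM in young AL mice, 41.1, 40.7 and 51.1 CPM in young EOD mice, 59.2, 46.1, 48.2 and 54.3 CPM in old AL mice, and 56.2, 48.5, 54.0 and 51.7 CPM in old EOD mice. Here the AL groups did not overlap, while the highest young EOD mouse was above 1 old EOD mouse. The averaged log2 differences were 0.46 ± 0.114 for Ctsh (FDR = 0.0450) and 0.28 ± 0.0732 for Ctso (FDR = 0.0633). The call for Ctsh was lost without young EOD mouse 1 or 2 or old AL mouse 1. The call for Ctso was lost without any of these, and also without old AL mouse 4 or old EOD mouse 1, 3 or 4, with lane as a covariate, with the replicate block, or at FDR 0.05.

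The other 5 cathepsins did not pass in edgeR with all 15 mice. Averaged over diets, limma called Ctsa and Ctsb, and DESeq2 called Ctsb. Ctsb, the highest cysteine cathepsin per kilobase, was at 650, 740, 771 and 685 CPM in young AL mice and at 758, 779, 802 and 805 CPM in old AL mice. It was at 713, 700 and 778 CPM in young EOD mice and at 841, 791, 755 and 842 CPM in old EOD mice. Young and old mice overlapped under both diets. Its averaged log2 difference was 0.14 ± 0.0474 (FDR = 0.178; without the third young AL mouse, FDR = 0.0762). The carboxypeptidase Ctsa had an averaged log2 difference of 0.19, Ctsc 0.14, Ctsl 0.11 and Ctsf -0.08, none of them past the threshold in edgeR. Without the third young AL mouse Ctsc was at 0.22 and Ctsf at -0.0027, still short of it.

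Of the 21 other hydrolases, 1 rose with age in AL mice, and the median log2 difference of the class was 0.095. That gene was Man2b1 (ENSMUSG00000005142, chr8:85083269-85098739), the lysosomal alpha-mannosidase. It was at 36.0, 35.2, 44.0 and 40.3 CPM in young AL mice, and at 49.0, 54.3, 63.2 and 50.7 CPM in old AL mice. It was at 39.5, 37.1 and 43.8 CPM in young EOD mice, and at 49.2, 54.2, 47.8 and 45.1 CPM in old EOD mice. No old mouse fell within the young range of its diet. The log2 difference was 0.47 ± 0.0998 in AL mice (FDR = 0.0207) and 0.29 ± 0.109 in EOD mice (FDR = 0.728). In AL mice the call was lost without the third old AL mouse (FDR = 0.117), the highest value of the gene.

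Hexa (ENSMUSG00000025232, chr9:59539667-59565105), the alpha chain of the hexosaminidase that degrades the ganglioside GM2, passed only over both diets. It was at 51.2, 57.5, 52.3 and 54.7 CPM in young AL mice, 46.1, 55.9 and 49.3 CPM in young EOD mice, 65.3, 60.9, 67.3 and 62.9 CPM in old AL mice, and 60.5, 59.9, 59.1 and 60.1 CPM in old EOD mice. Old and young mice did not overlap under either diet. The averaged log2 difference was 0.25 ± 0.0574 (FDR = 0.0270), and the call was lost without the first young EOD mouse. The other 19 hydrolases did not pass in any comparison in edgeR with all 15 mice and the filter on low counts. With no filter, edgeR called Fuca1 in AL mice and averaged over diets, and likewise without young AL mouse 2. The log2 differences of the 19 in AL mice ran from -0.24 (Galns, a sulfatase of keratan sulfate) to 0.49 (Sgsh), and the latter had a standard error of 0.261. Without the third young AL mouse Galns was at -0.10 and Sgsh at 0.28, and the highest of the 19 was the acid lipase gene Lipa at 0.37. In Sgsh the lowest value was that of the third young AL mouse, at 3.25 CPM, against 6.60 to 7.03 CPM in the other 3 young AL mice.

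Among the 4 activators and carriers Npc2 (ENSMUSG00000021242, chr12:84754560-84773112), the soluble carrier that hands cholesterol on within the lysosome, rose in AL mice. It was at 59.2, 60.9, 56.1 and 60.8 CPM in young AL mice, 54.9, 57.4 and 59.3 CPM in young EOD mice, 74.5, 70.3, 84.0 and 75.6 CPM in old AL mice, and 71.3, 72.03, 68.3 and 76.7 CPM in old EOD mice. All 8 old mice lay above all 7 young mice. The log2 difference was 0.36 ± 0.0748 in AL mice (FDR = 0.0188) and 0.33 ± 0.082 in EOD mice (FDR = 0.154, and 0.0847 without the third young AL mouse). Psap was at 1476, 1762, 1704 and 1619 CPM in young AL mice, 1584, 1619 and 1685 CPM in young EOD mice, 1579, 1750, 1718 and 1700 CPM in old AL mice, and 1762, 1771, 1591 and 1722 CPM in old EOD mice. All groups overlapped, and its averaged log2 difference was 0.06 ± 0.0462. The progranulin gene Grn and the GM2 activator gene Gm2a had averaged log2 differences of 0.20 and 0.07 and did not pass.

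Of the 7 membrane proteins, 3 rose with age in AL mice, and the class had a median log2 difference of 0.32. Cd68 (ENSMUSG00000018774, chr11:69664213-69666153), a LAMP-family protein of macrophage and microglial lysosomes, was at 5.91, 6.23, 5.21 and 5.77 CPM in young AL mice and at 13.3, 10.2, 10.4 and 10.2 CPM in old AL mice. It was at 4.72, 5.50 and 5.91 CPM in young EOD mice and at 7.71, 8.08, 7.37 and 7.31 CPM in old EOD mice. All old mice lay above all young mice, and all old EOD mice below all old AL mice. The log2 difference with age was 0.93 ± 0.151 in AL mice (FDR = 0.00193) and 0.51 ± 0.173 in EOD mice (FDR = 0.625).

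Npc1 (ENSMUSG00000024413), the membrane partner of Npc2 in cholesterol export, was at 81.6, 69.3, 68.9 and 75.4 CPM in young AL mice and at 96.5, 92.6, 95.1 and 84.2 CPM in old AL mice. It was at 80.1, 85.6 and 75.0 CPM in young EOD mice and at 91.7, 95.1, 91.7 and 96.5 CPM in old EOD mice. Old and young mice of the same diet did not overlap. The log2 difference in AL mice was 0.32 ± 0.0757 (FDR = 0.0494). Without the third young AL mouse it did not pass (FDR = 0.123). The tetraspanin Cd63 (ENSMUSG00000025351, chr10:128908919-128912816) was at 21.0, 24.3, 20.8 and 19.6 CPM in young AL mice, 21.3, 23.0 and 22.9 CPM in young EOD mice, 30.8, 27.2, 27.2 and 27.5 CPM in old AL mice, and 27.6, 31.6, 27.1 and 26.4 CPM in old EOD mice. All old mice were above all young mice. Its log2 difference in AL mice was 0.40 ± 0.0995 (FDR = 0.0713), a call that did not hold without the third young AL mouse (FDR = 0.118).

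Lamp1 (ENSMUSG00000031447, chr8:13159135-13175338) and Laptm5 (ENSMUSG00000028581, chr4:130913125-130936141), a membrane protein of blood-lineage cells, passed over both diets in the edgeR fit of all 15 mice. In AL mice alone that fit called neither, while DESeq2 called both and limma called Laptm5. Other edgeR settings called Lamp1 in AL mice, with at least 10 counts in every mouse or without young AL mouse 1. Laptm5 was called there with no filter, without the third young AL mouse or without old AL mouse 1. Lamp1 was at 405, 396, 364 and 372 CPM in young AL mice, 383, 382 and 406 CPM in young EOD mice, 455, 429, 462 and 440 CPM in old AL mice, and 444, 423, 426 and 443 CPM in old EOD mice. No old mouse overlapped a young mouse. Its averaged log2 difference of 0.18 ± 0.0423 (FDR = 0.0272) was the smallest called, in the gene with the lowest spread within groups. Laptm5 was at 24.8, 25.9, 30.3 and 29.3 CPM in young AL mice, 23.4, 20.6 and 27.1 CPM in young EOD mice, 31.6, 34.8, 39.5 and 38.3 CPM in old AL mice, and 31.4, 30.4, 28.4 and 30.1 CPM in old EOD mice. Old and young mice of the same diet did not overlap, and its averaged log2 difference was 0.36 ± 0.0776 (FDR = 0.0169). Lamp2 and Scarb2, also proteins of the lysosomal wall, had averaged log2 differences of 0.19 and 0.09. Neither passed in edgeR with all 15 mice, the filter on low counts and no covariate. Averaged over diets, Lamp2 was called by DESeq2 and by edgeR with lane as a covariate, with no filter or without young AL mouse 1. Without that mouse Lamp2 was also called in AL mice.

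**Figure D2:**
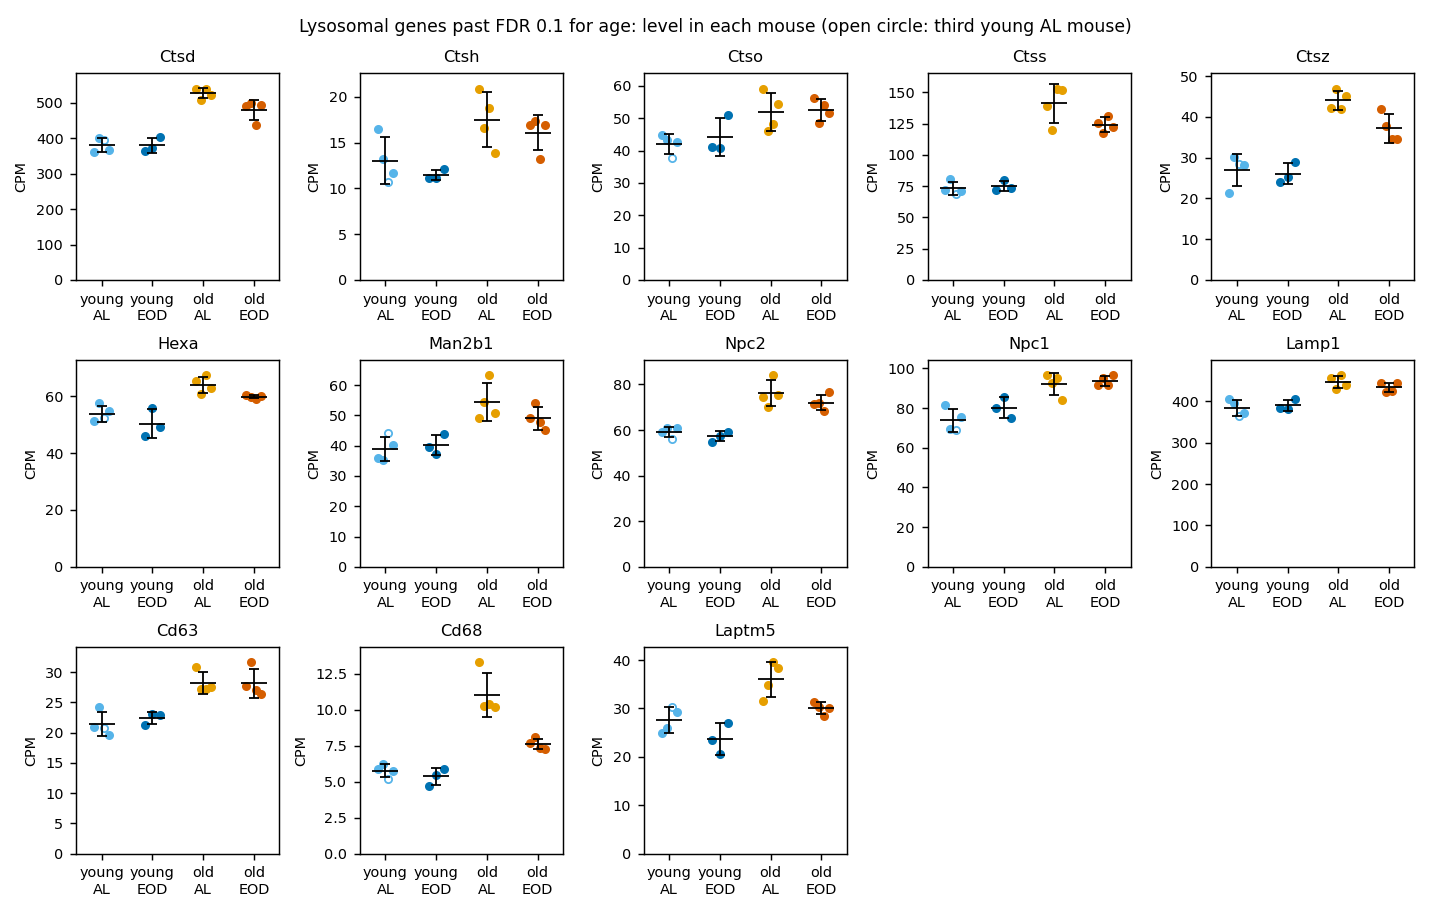
Level in CPM of the 13 genes past FDR 0.1 for age in at least 1 comparison, 1 panel a gene, 1 point a mouse, with group mean and SD; the open circle is the third young AL mouse. In Ctss and Cd68 every old mouse lies above every young one, and in Cd68 the old EOD mice (7.31 to 8.08 CPM) lie below the old AL mice (10.2 to 13.3 CPM).

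In EOD mice 2 of the 42 genes passed the test for age, Ctsd and Ctss, both higher in old mice, against 0.29% of all genes. Without the third young AL mouse there were 4, with Ctsz and Npc2 added, against 0.484% of genes. Ctsd was lost, leaving 1 gene, when young EOD mouse 1 or 2 or old EOD mouse 1, 2 or 4 was left out, and limma and DESeq2 each called 4. The median log2 difference over the 42 genes was 0.15, with 36 positive and 6 negative, against -0.00036 over all genes. At an unadjusted p under 0.05 there were 13 of the 42, against 5.74% of all genes. Old and young EOD mice did not overlap, with the old higher, for 17 genes against 4.75% of all genes, and with the old lower for 1, Arsb, a sulfatase, against 4.29%. The EOD comparison held 3 young mice against 4 in the AL comparison.

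Averaged over both diets, 13 of the 42 genes rose with age and none fell, against 2.30% of all genes. These were 5 of 10 cathepsins, 2 of 21 other hydrolases, 1 of 4 activators and carriers, and 5 of 7 membrane proteins. Without the third young AL mouse 14 rose, Ctsb being the gene added, against 2.56%. The averaged median log2 difference was 0.23 for the cathepsins, 0.13 for the other hydrolases, 0.14 for the activators and carriers and 0.27 for the membrane proteins, beside -0.0049 over all genes. No test between the classes was run. Within sequencing lanes 1, 2 and 3, each with 1 or 2 mice a group, the AL age difference was positive for 35, 29 and 35 of the 42 genes, and for 50.6%, 50.4% and 48.2% of all genes. In EOD mice it was positive for 36 and 35 of the 42 in lanes 1 and 2, and for 49.8% and 49.7% of all genes.

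**Figure D3:**
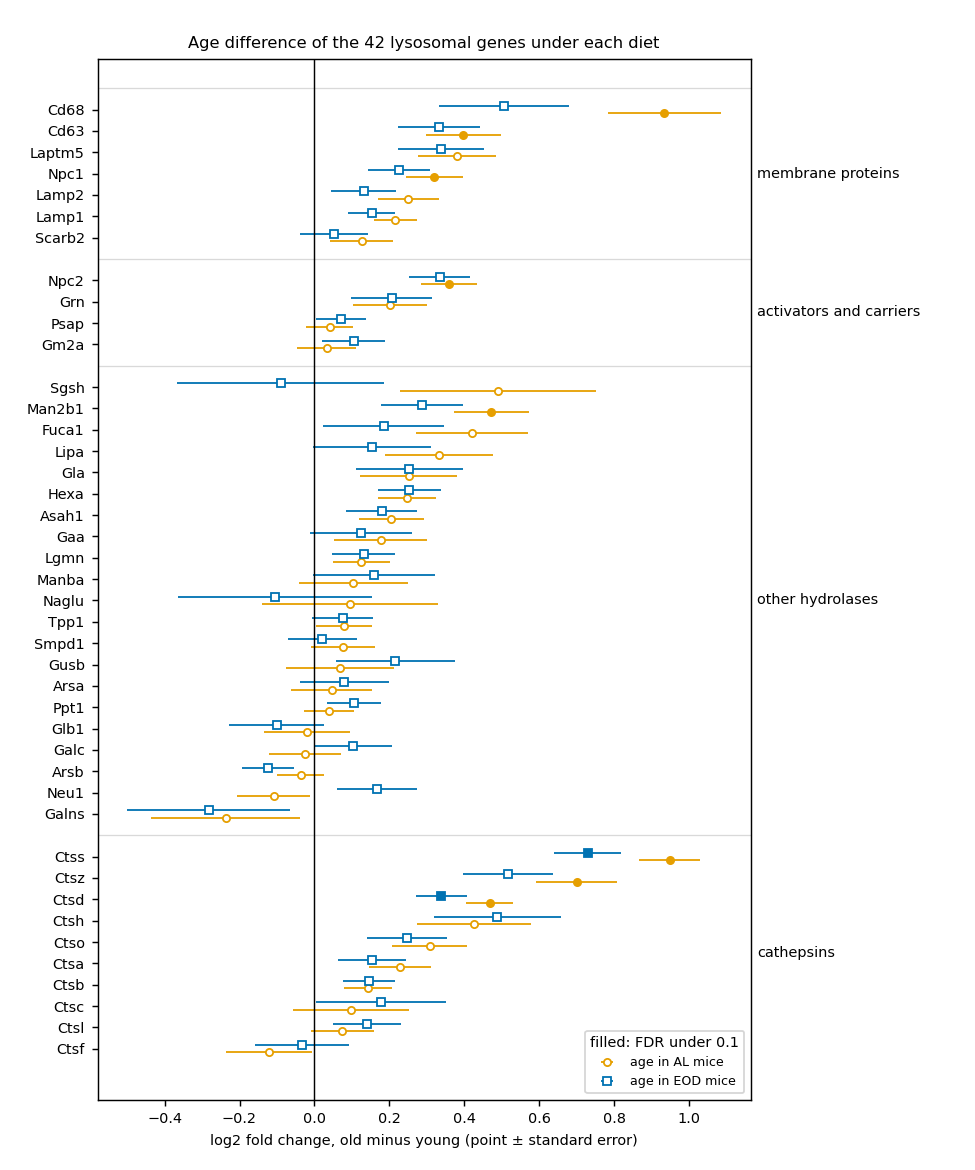
Log2 difference between old and young mice with its standard error for each of the 42 genes, in AL mice (circles) and EOD mice (squares), grouped by class; filled symbols passed FDR 0.1. Ctss (0.95) and Cd68 (0.93) lie farthest to the right in AL mice. The 21 other hydrolases run from -0.24 to 0.49 in AL mice, with 16 positive and 5 negative.

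The next question was whether EOD feeding changes these genes at a given age. None of the 42 passed in young mice, in old mice or in the difference of the age effect between diets, and no gene of the 15864 passed in any of them, so 0% of all genes were called each time by edgeR. DESeq2 and limma called 0 of the 42 as well. In young mice 1 gene had an unadjusted p under 0.05, the sialidase gene Neu1, against 4.14% of all genes. Neu1 was at 45.1, 55.4, 61.3 and 51.6 CPM in young AL mice, 46.6, 43.0 and 47.6 CPM in young EOD mice, 47.9, 47.5, 49.0 and 53.6 CPM in old AL mice, and 50.9, 57.8, 45.0 and 51.9 CPM in old EOD mice. All groups overlapped, and the highest value was that of the third young AL mouse. The log2 difference between young EOD and young AL mice was -0.22 ± 0.106 (FDR = 0.996), and -0.15 without that mouse. Neu1 also had the smallest unadjusted p (0.0712) for the difference of age effects, 0.27 ± 0.144 on the log2 scale. For that difference 0 of the 42 genes had an unadjusted p under 0.05, against 2.28% of all genes.

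In old mice, 5 of the 42 genes had an unadjusted p under 0.05 and all 5 were lower under EOD: Ctsd, Ctss, Ctsz, Cd68 and Laptm5. Of all genes, 1.61% met the same unadjusted limit and were lower. None of the 5 passed after adjustment, and all 5 are among the genes that were higher in old mice. Cd68 had the smallest p, with a log2 difference of -0.53 ± 0.148 (unadjusted p = 0.00168, FDR = 1.0). The others were at -0.26 (Laptm5), -0.25 (Ctsz), -0.18 (Ctss) and -0.13 (Ctsd). Old EOD mice lay below all old AL mice, without overlap, for Ctsd, Ctsz, Hexa, Cd68 and Laptm5, against 1.36% of all genes. The 2 comparisons share the old AL mice, so a high value in those mice enters both. Over the 42 genes the median log2 diet difference in old mice was -0.0422, with 27 negative and 15 positive, and 0.0026 over all genes. In young mice the median was 0.0036, with 20 negative and 22 positive. Within lanes 1, 2 and 3 the diet difference in old mice was negative for 24, 21 and 28 of the 42 genes. The shares of all genes were 49.6%, 49.4% and 49.2%. The standard errors of single genes in old mice, 0.0573 for Lamp1 to 0.256 for Sgsh, set how small a diet difference could have been seen.

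**Figure D4:**
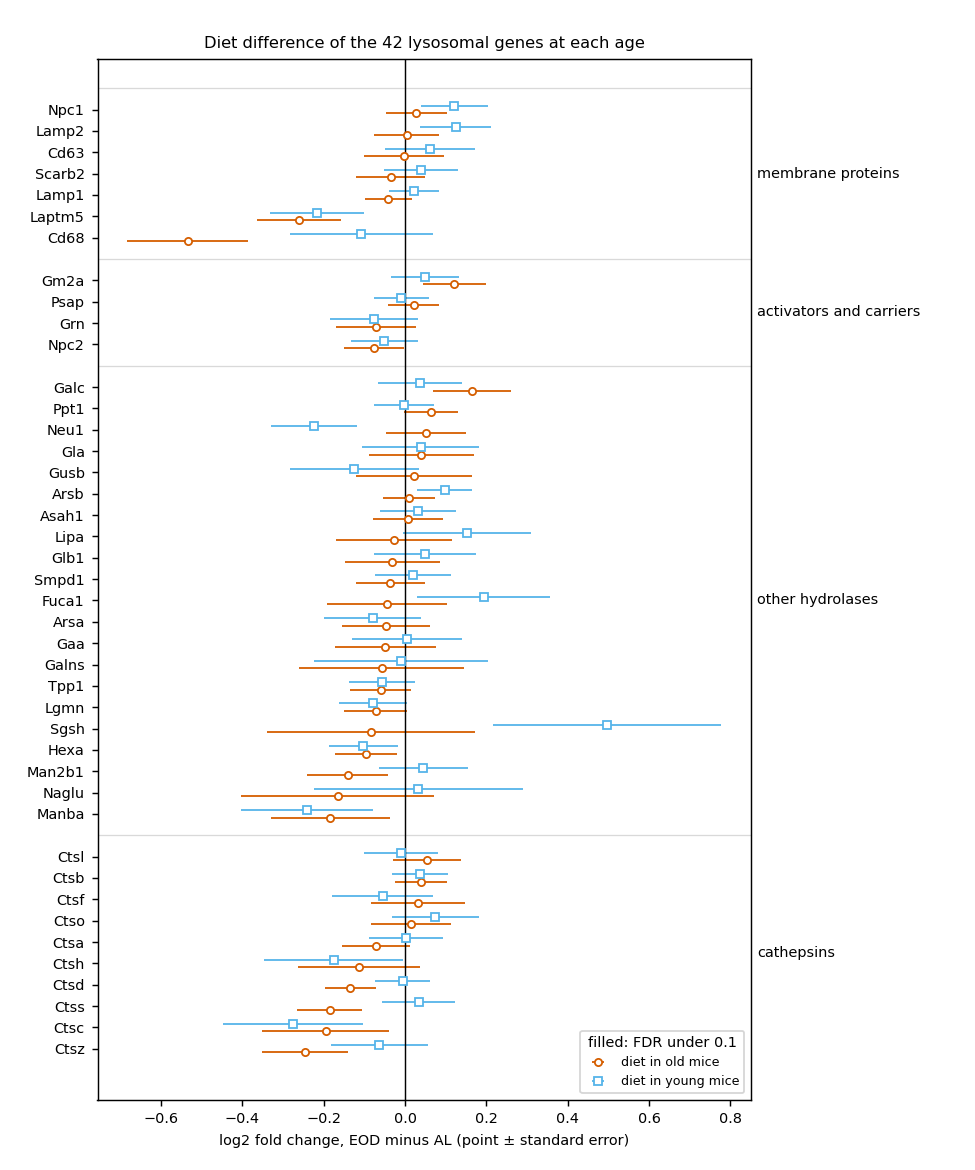
Log2 difference between EOD and AL mice with its standard error for each of the 42 genes, in old mice (circles) and young mice (squares), grouped by class. All symbols are open, since no gene passed FDR 0.1; Cd68 in old mice lies farthest to the left, at -0.53.

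Other gene lists of the lysosome were read in the same fit. Among further hydrolases, the lysozyme gene Lyz2 rose with age under both diets. Lyz2 had log2 differences of 2.01 ± 0.123 in AL mice and 1.42 ± 0.14 in EOD mice. Among the 18 subunits tested of the V-ATPase, the pump that acidifies the lysosome, none was called by edgeR in AL mice, 0 had an unadjusted p under 0.05, and the median log2 difference was 0.0013 (0.016 without the third young AL mouse). None of 20 lysosomal channels and transporters, 13 sorting genes or 3 transcription factors of the TFEB family passed either, with 1, 0 and 0 at an unadjusted p under 0.05. Of the 4 cathepsin inhibitors tested, Cst3 (log2 difference 0.29 ± 0.0762, FDR = 0.0946; without the third young AL mouse, FDR = 0.160) and Cst7 rose in AL mice, and Cst7 in EOD mice. Cst7, cystatin F, was at 0.121, 0.0916, 0 and 0 CPM in young AL mice and 3.11, 1.84, 2.65 and 2.19 CPM in old AL mice. It had no count in the 3 young EOD mice, where 3 counts would have been 0.303, 0.510 and 0.397 CPM, and 0.754, 1.02, 1.93 and 1.35 CPM in old EOD mice.

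Markers of microglia moved with age in the same brains. Of 15 microglial markers 5 rose in AL mice (Trem2, Tyrobp, C1qa, C1qb and C1qc), all 15 were detected, and 8 had an unadjusted p under 0.05. Their summed level was 377 to 421 CPM in young AL mice, 363 to 380 CPM in young EOD mice, 488 to 560 CPM in old AL mice and 434 to 517 CPM in old EOD mice. In EOD mice 4 rose (Trem2, C1qa, C1qb and C1qc). In old mice the diet differences of the 15 markers ran from -0.44 to 0.23 on the log2 scale, with 10 negative, 5 positive, a median of -0.0569 and none past FDR 0.1. The 5 that rose in AL mice lay between -0.33 and -0.44, and the old AL mice enter both comparisons. Markers of border macrophages summed to 17.3 to 25.2 CPM in young AL mice and 10.5 to 20.02 CPM in old AL mice, with none called. Among astrocyte markers Gfap and S100b rose in AL mice and among oligodendrocyte markers Mbp did (FDR = 0.0515; without the third young AL mouse, FDR = 0.156), while none of 7 neuronal markers passed. The part of microglia and other cell types in the lysosomal differences was not tested, and in whole brain more cells of a type and more RNA per cell cannot be told apart.

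**Figure D5:**
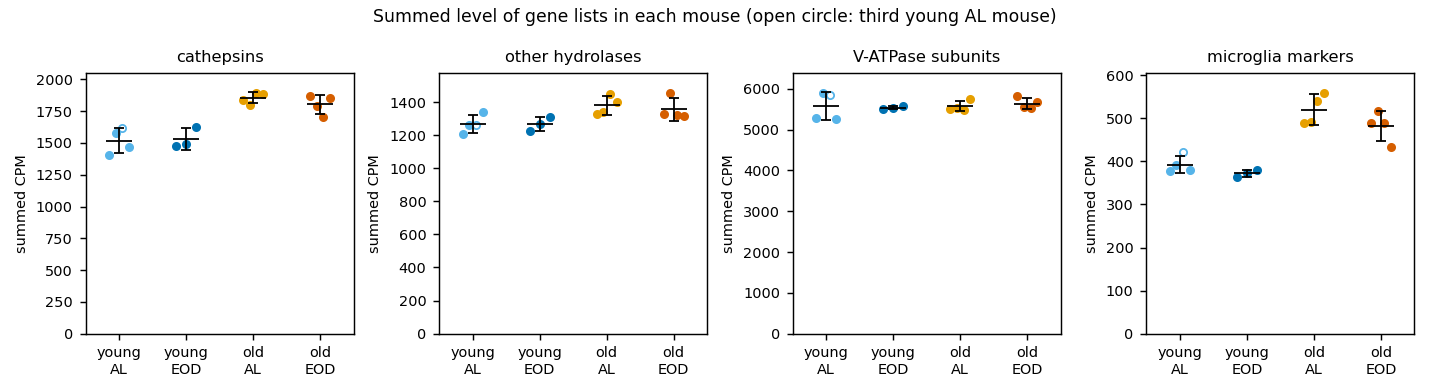
Summed CPM of the 10 cathepsins, 21 other hydrolases, 19 V-ATPase subunits and 15 microglial markers in each mouse, with group mean and SD; the open circle is the third young AL mouse. The cathepsin sums of old mice (1701 to 1897 CPM) lie above those of young mice (1406 to 1628 CPM), the microglial sums do likewise, and the V-ATPase sums overlap.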

How the data were processed

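Whole-brain RNA-seq libraries of 15 mice were analysed, grouped by the labels. Per the study's methods, the authors trimmed single-end reads, used STAR for alignment to GRCm38 and counted with featureCounts. Per the file headers, this was version 1.5.0-p1 with Ensembl release 79 annotation (reverse-stranded, primary alignments, mapping quality of at least 5). The values the authors deposited are raw counts per gene. Reads shared by overlapping genes on the same strand were not counted. Counts were tested in R 4.3.3 with edgeR 4.0.16 (TMM, filterByExpr, quasi-likelihood F test, 1 fit of the 4 group means, Benjamini-Hochberg over 15864 genes, FDR under 0.1, the study's threshold). The third young AL mouse was kept, and a fit of 14 mice (15687 genes) is given beside it. Standard errors of log2 differences were derived from the F statistic. CPM uses TMM library sizes. The median total count was 9886766. Replicate mice differed by 3.01 to 16.6 times the sampling noise (chi-square per degree of freedom, 21 pairs within groups). No library was thus a copy of another of its group, and pairs across groups were not compared in this way. The test was also run on simulated counts drawn with this fit's own estimates of spread. That run checks the code and is no support for the differences given here.

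The 42 genes, the other gene lists and the markers were chosen with earlier results of these data known. Values of each mouse are given for genes past FDR 0.1 in any comparison, for the 5 highest per kilobase of exon and for the smallest p where nothing was called. Of the other lysosomal lists, genes past FDR 0.1 in any comparison are named, apart from a result that is not reported here. Alternatives were the threshold, low-count filters, RLE scaling, the replicate number as a block, lane, only the groups compared, limma 3.58.1 (voom with quality weights), DESeq2 1.42.0 and leaving out each mouse. Gene coordinates are those of the deposited files. Promoters are from RefSeq (GRCm38.p6). A lane is the one named in the file headers. Protein sequences were not used here.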

Additional observations from a re-analysis of the deposited data

Results flagged for a closer look

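In a group of 4 mice a value was singled out when its gap to the nearest other mouse exceeded Dixon's critical share of the range. This held for 13 of 126 groups, where chance at 1 in 20 gives about 6.3.

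In the third young AL mouse, Ctsc was at 19.9 CPM (13.2 to 13.9 in the other 3), Lgmn at 132 CPM (113 to 115) and Sgsh at 3.25 CPM (6.60 to 7.03). In young AL mouse 1, Grn was at 35.3 CPM (43.8 to 45.2).

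In old AL mouse 1, 4 genes stood apart: Ctsa was low at 96.2 CPM (106 to 108), while Lipa at 50.5 CPM (33.5 to 35.9), Cd63 at 30.8 CPM (27.2 to 27.5) and Cd68 at 13.3 CPM (10.2 to 10.4) were high. Without that mouse Cd68 was still called for age in AL mice and Cd63 was not.

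In old EOD mice, Ctsd was at 438 CPM (492 to 499) and Ctsh at 13.2 CPM (16.9 to 17.3) in mouse 3, Ctsl at 111 CPM (130 to 131) and Gaa at 388 CPM (277 to 296) in mouse 2, and Asah1 at 80.2 CPM (71.7 to 73.1) in mouse 4. The causes were not tested.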

How the results depend on the processing

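No direction of a called gene reversed under any alternative. For age in AL mice, Ctsd, Ctss, Ctsz and Cd68 passed in all 24 alternatives, Npc2 in 23, Man2b1 in 22, Npc1 in 17 and Cd63 in 11. Using only the 2 groups compared left 4 of the 42 genes and 86 of all genes, and no filter gave 444 of all genes. Leaving out single mice gave 5 to 9 of the 42 and 102 to 221 of all genes. For age in EOD mice, Ctss passed in all 24 and Ctsd in 18. The replicate block left 1 gene, while limma voom and DESeq2 each gave 4. Of all genes, no filter gave 100, limma 125 and DESeq2 70, and leaving out single mice gave 1 to 4 of the 42 and 19 to 76 of all genes. For age averaged over diets the 42 gave 10 to 15 calls throughout, and all genes gave 229 at FDR 0.05, 653 with no filter, 237 with lane as a covariate and 216 to 425 without single mice. For diet, none of the 42 passed under any alternative. Of all genes, no filter gave 26 in young mice, 27 in old mice and 26 for the difference of age effects, DESeq2 gave 1 in young mice, and lane as a covariate and limma each gave 2 in old mice. The causes were not tested.

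Replicate numbers did not pair the mice: same-numbered mice of different groups had a mean correlation of deviations of -0.0266 (21 pairs) against 0.00874 (63 pairs) for others, and 3 of 15 mice correlated best with their own number. With the block, 7 of the 42 passed in AL mice and 12 averaged over diets. Depth limits the genes with few counts, such as Galns, Sgsh and Cd68, and 3 young EOD mice limit the EOD comparisons.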
